A study of Mus musculus with 166 samples.

Results

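The genes described here encode the microtubule motors of the cell, namely the kinesins, the cytoplasmic dyneins and dynactin, in mouse cerebellum. Members were chosen by name alone: a symbol starting with Kif and a digit, Klc1 to Klc4, or a symbol starting with Dync, Dynl or Dctn, with at least 0.5 CPM (a gene's count relative to the library total) in at least 8 libraries. By this rule 61 genes entered, of 69 with such a symbol and of 16525 genes tested in all. The 8 left out below the minimum were Kif12, Kif16bos, Kif18b, Kif22-ps, Kif28, Kif2b, Kif2c and Kif4-ps. Polyadenylated RNA of 166 cerebella was sequenced, 1 library per mouse, from heterozygous knock-in mice on C57BL/6 that carry 1 wild-type Htt allele and 1 allele with a human HTT exon of 20, 80, 92, 111, 140 or 175 CAG repeats (Q20, Q80, Q92, Q111, Q140, Q175), and from wild-type littermates of the Q20 line (WT, 7 CAG). Mice were 2, 6 or 10 months old, of both sexes, with 8 libraries per genotype and age except for 7 of Q111 and 7 of Q140 at 10 months. The Q175 allele came from the Q140 line by further expansion of its repeat, so these alleles are related. WT and Q20 libraries of an age were the controls.

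Kinesins carry cargo along microtubules, most of them towards the plus ends, which in an axon means away from the cell body, and cytoplasmic dynein carries cargo back. Kinesin-1 is built of heavy chains (Kif5a, Kif5b, Kif5c) and light chains (Klc genes) that bind cargo, whereas dynein-1 is built around the heavy chain Dync1h1, and its intermediate chains Dync1i1 and Dync1i2 bind dynactin, the complex that joins dynein to its cargo. Huntingtin, the product of Htt, is known to associate with both kinds of motor, in part through adaptor proteins. Loss of axonal transport is among the defects studied in Huntington's disease models.

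Library totals ran from 23448884 to 43066066 estimated counts. Markers of granule neurons, Purkinje neurons and cerebellar glia were present in every library. In 26 libraries (18 of 2 months, 4 of 6 months and 4 of 10 months) long transcripts were low relative to short ones, as measured by the slope of a library's log2 levels on log2 transcript length (length index below -0.05). Of these, 7 were controls, 2 were Q175 libraries of 2 months and 0 were Q175 libraries of 6 or 10 months. For the Q175 comparisons of 6 and 10 months, the combined slope and age, counts of members without these libraries stand beside the main ones. In 2 libraries the sex-linked genes went against the label. At 6 months the Q175 and WT libraries shared 1 format of library name in the labels and the other lines shared another with Q20. What this set stands for is not stated, and with it as a term WT served as the control of Q175, and Q20 as that of Q80, Q92, Q111 and Q140.

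Levels between genes were compared per length, in FPKM (a unit that divides a gene's fragments by its length and by the library's size), in the 16 controls of 10 months. The light chain Klc1 had the highest median, 201 FPKM (lowest 172, highest 214), followed by the dynein light chain Dynll2 at 188 (178 to 213), and these ranges overlapped. The neuronal kinesin-1 heavy chains Kif5a (median 155 FPKM) and Kif5c (145) and the kinesin-3 motors Kif1b (141) and Kif1a (126.5), which carry synaptic vesicle precursors and mitochondria, came next, and every pair of neighbours among them overlapped. The widely used heavy chain Kif5b was at 67.5 FPKM. Within dynein-1 the order of medians was Dync1li2 (75.7 FPKM), Dync1i2 (65.6), Dync1i1 (52.5), Dync1h1 (48.5) and Dync1li1 (30.0), and dynactin subunits ran from 24.1 (Dctn4) to 91.2 (Dctn1). The 7 members listed here as kinesins of dividing cells were at 0.089 to 0.777 FPKM, and kinesin-9 (Kif6, Kif9) at 0.492 and 1.17. Kif14, grouped here with kinesin-3, was last at 0.0382. Over the whole order, 33 members had a median of 10 FPKM or more and 15 a median under 1 FPKM. Neighbouring members overlapped at all but 3 steps, which lay between Dynll2 and Kif5a, between Dctn4 and Kif1c and between Kif17 and Kif24.

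**Figure D1:**
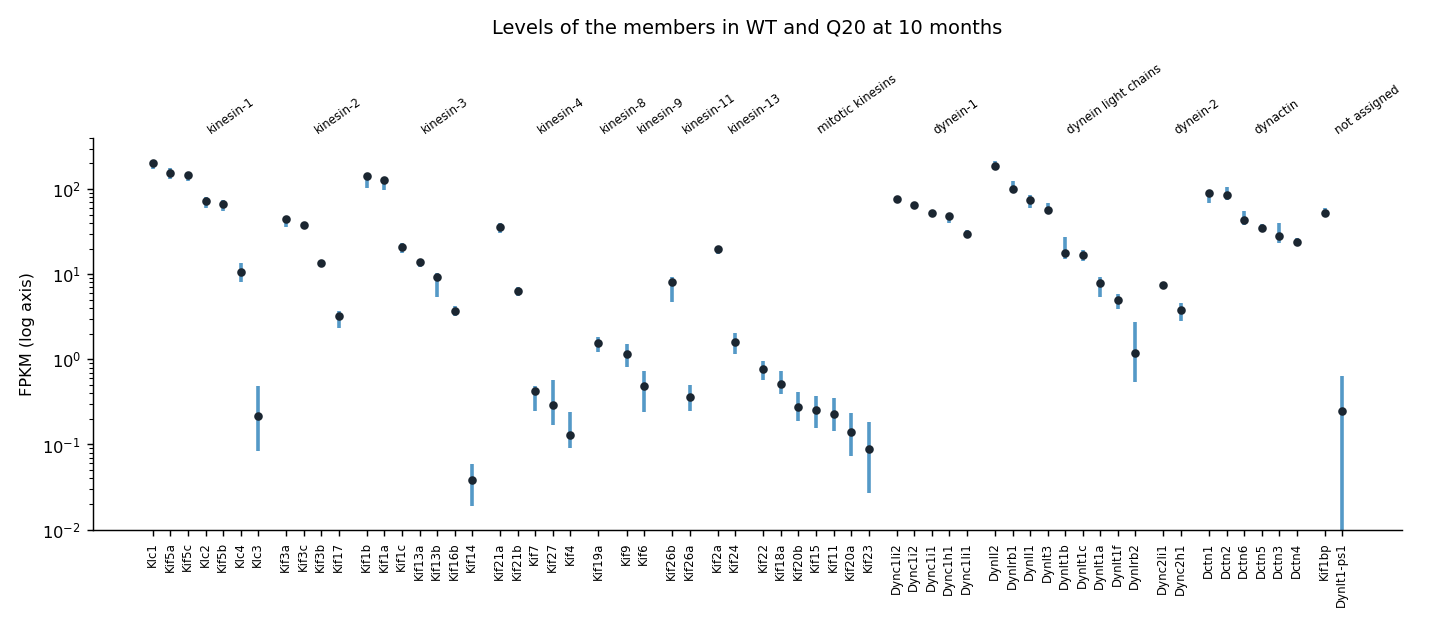
Level of each member in the 16 WT and Q20 libraries of 10 months, in FPKM on a log axis, grouped by family. Points are medians and bars run from the lowest to the highest library. Kif5a, Kif5c, Kif1a, Kif1b, Klc1, Dynll2 and Dynlrb1 lie above 100 FPKM at the median, and Kif14 lies lowest at 0.0382. The bar of the pseudogene Dynlt1-ps1 starts at 0 and is cut at the bottom of the axis.

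Does a long CAG repeat change the motor genes? At 10 months 6 of the 61 members differed between Q175 and the controls at an adjusted p under 0.05 (edgeR's quasi-likelihood test, Benjamini-Hochberg over all genes), 2 higher (Dync1i1, Kif18a) and 4 lower (Kif6, Kif9, Kif14, Dynlt1c). That is 9.84% of the members beside 12.8% of all genes tested (5.6% higher, 7.16% lower), a share no higher than the background. At 6 months 2 members were called, Dync1i1 higher and Klc2 lower, beside 4.52% of all genes. The median log2 change over the 61 members was -0.00025 at 10 months and 0.0068 at 6 months, beside -0.0050 and -0.0054 over all genes. Without the libraries of low length index 12 members (4 higher, 8 lower) were called at 10 months, beside 26.2% of all genes, and 4 at 6 months, beside 13.3%. The members added at 10 months were the dynein-2 light intermediate chain Dync2li1 (-0.15 ± 0.05, log2 change ± SE), Kif16b (0.10 ± 0.03), Kif3c (-0.08 ± 0.02), Dctn2 (0.10 ± 0.03), Kif5b (-0.09 ± 0.03) and Kif13b (-0.15 ± 0.06). At 6 months Dynlt1c (-0.18 ± 0.06) and Dync1i2 (0.10 ± 0.03) were added.

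**Figure D2:**
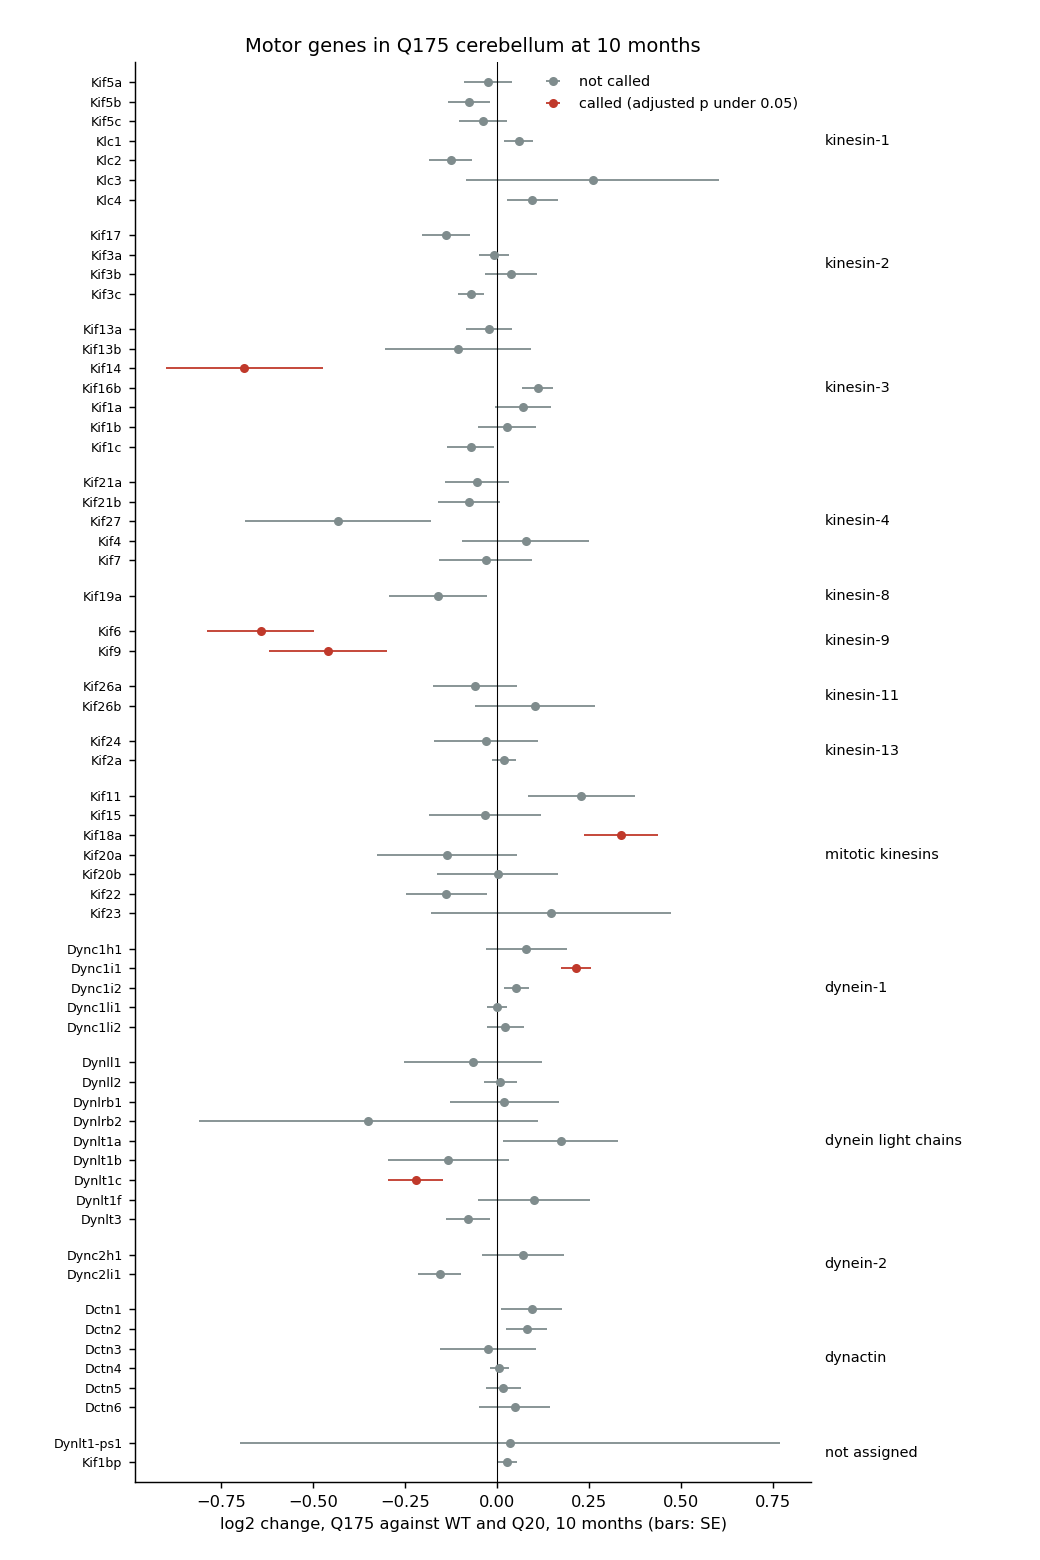
Log2 change of each member between 8 Q175 and 16 WT and Q20 libraries of 10 months, with bars of 1 SE, grouped by family. Red points are the 6 members called at an adjusted p under 0.05. Among them Kif14 (-0.69) and Kif6 (-0.64) lie farthest to the left, and Dync1i1 lies at 0.21 with an SE of 0.04.

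Dync1i1, a dynein intermediate chain made mainly in neurons (ENSMUSG00000029757, chr6:5725639-6028039, plus strand, GRCm38), had the smallest p of all members. At 10 months WT libraries held 129 to 147 CPM (median 137), Q20 libraries 130 to 144 (median 137), Q80 127 to 154 (median 136), Q92 131 to 158 (median 139), Q111 120 to 155 (median 142), Q140 136 to 149 (median 145) and Q175 155 to 174 (median 160). All 8 Q175 libraries lay above all 16 controls and above all 7 Q140 libraries. No other member had Q175 and control groups that did not overlap, beside 1.92% of all genes. The fitted change was 0.21 ± 0.04 (log2, SE, adjusted p = 0.000187). At 6 months WT held 128 to 144 CPM (median 135), Q20 128 to 153 (median 137), Q140 141 to 158 (median 145) and Q175 149 to 163 (median 154). Here 5 of the 8 Q175 libraries lay above every control, the highest controls being Q20 libraries of low length index. With WT and Q20 together as controls 0 of 61 members had groups apart, beside 1.3% of all genes. Against WT alone, the control of Q175 in the fit of this age, the groups of Dync1i1 and of Dync1i2 did not overlap. The share of all genes apart from WT alone is not given. The fitted change of Dync1i1 was 0.19 ± 0.04 (adjusted p = 0.00336). At 2 months the groups overlapped throughout, with Q175 at 137 to 168 CPM (median 147) and WT at 131 to 156 (median 142), and a change of 0.08 ± 0.03 (adjusted p = 1).

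**Figure D3:**
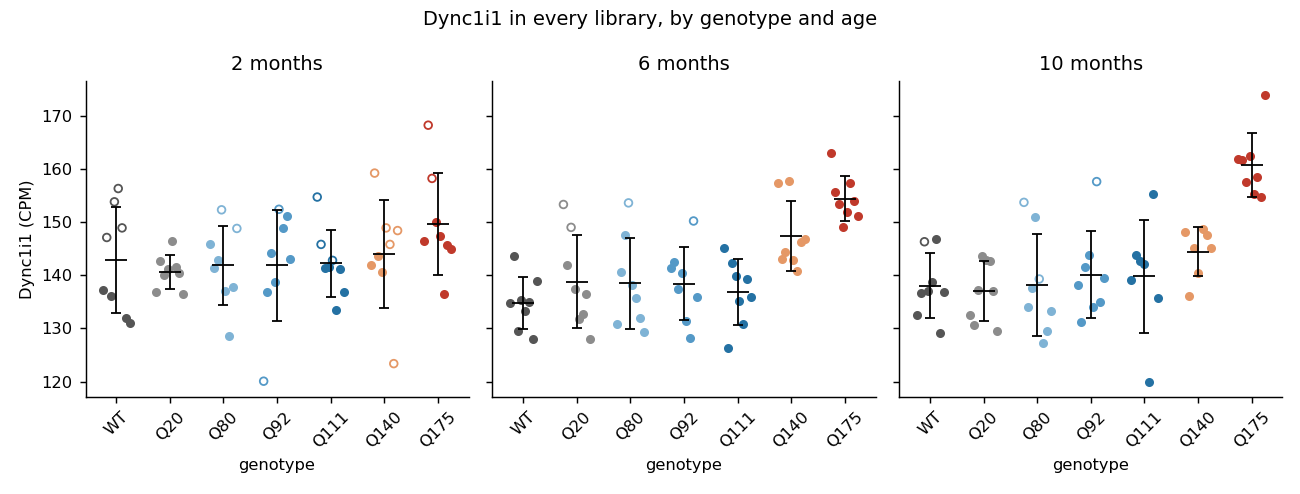
Dync1i1 in each library, in CPM, by genotype and in 1 panel per age. Points are libraries, open points those of low length index, and black bars are the mean ± SD. The Q175 libraries of 10 months lie between 155 and 174 CPM, above all WT and Q20 libraries of that age, whereas at 2 months all genotypes overlap. The axis does not start at 0.

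The level of Dync1i1 also rose with CAG length as a number. Per 100 CAG the slope was 0.04 ± 0.02 (log2, SE) at 2 months (adjusted p = 0.9999), 0.09 ± 0.02 at 6 months (adjusted p = 0.00786) and 0.11 ± 0.02 at 10 months (adjusted p = 0.00189). The slopes of 10 and 2 months did not differ past the threshold (difference 0.07 ± 0.03, adjusted p = 0.661). Of the shorter expansions none was called at 10 months, with changes of -0.000077 (Q80), 0.08 (Q92), 0.04 (Q111) and 0.08 (Q140). Its sister chain Dync1i2, made in all cell types, had a change of 0.05 ± 0.03 in Q175 at 10 months (adjusted p = 0.39) and of 0.10 ± 0.05 at 6 months (adjusted p = 0.329). The share of Dync1i1 in the summed FPKM of both intermediate chains was 42.1% to 46.4% (median 44.4%) in the controls of 10 months and 45.4% to 50.1% (median 47.1%) in Q175. The groups overlapped, as did those of 6 months (41.1% to 47.3% against 45.4% to 48.2%). The 250 bases before its RefSeq start (GRCm38.p6, chr6:5725389-5725638, plus strand) are shown because Dync1i1 had the clearest difference, with GTTGCC in capitals.
Dync1i1: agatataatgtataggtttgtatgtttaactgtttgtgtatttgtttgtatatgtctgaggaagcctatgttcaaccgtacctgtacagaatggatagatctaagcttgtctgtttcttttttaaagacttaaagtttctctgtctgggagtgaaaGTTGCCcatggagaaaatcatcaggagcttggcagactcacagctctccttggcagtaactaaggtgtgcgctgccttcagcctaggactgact
That motif, searched on both strands (GTTGCC or GGCAAC), is part of the site of the RFX factors that act on genes of cilia, and was chosen after the sequences were seen. It stood in 3425 of 32851 promoter windows of this length (10.4%) and in 14 of 52 windows of members (26.9%), which belong to 13 of the 45 members with an entry. A match is a description and not a binding site.

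The other subunits of dynein and dynactin gave no call at 10 months apart from Dynlt1c. The heavy chain Dync1h1 held 518 to 719 CPM (median 673) in the controls and 625 to 851 (median 681) in Q175, and the ranges overlapped. Its change was 0.08 ± 0.11 (adjusted p = 0.748), and the light intermediate chains, which bind adaptors, had -0.00025 ± 0.03 (Dync1li1) and 0.02 ± 0.05 (Dync1li2). In dynactin the cargo and microtubule binding subunit Dctn1 had 228 to 336 CPM (median 299) in the controls and 235 to 427 (median 316) in Q175, with a change of 0.09 ± 0.08. Dctn2, which holds the shoulder of the complex together, had 0.08 ± 0.05. The remaining dynactin subunits were Dctn3 (-0.02 ± 0.13), Dctn4 (0.01 ± 0.03), Dctn5 (0.02 ± 0.05) and Dctn6 (0.05 ± 0.10). Among light chains, which sit on the intermediate chains, Dynll1 had -0.07 ± 0.19, Dynll2 0.01 ± 0.04, Dynlrb1 0.02 ± 0.15, Dynlrb2 -0.35 ± 0.46 and Dynlt3 -0.08 ± 0.06. None of these passed the threshold.

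Dynlt1c (ENSMUSG00000000579, chr17:6601671-6609774) is 1 of several near-identical copies of a Tctex-type dynein light chain. Controls of 10 months held 33.9 to 46.0 CPM (median 40.1) and Q175 30.7 to 37.4 (median 34.9). The groups overlapped, with 2 Q175 libraries below all controls, and the change was -0.22 ± 0.07 (adjusted p = 0.0372). Its copies had 0.17 ± 0.16 (Dynlt1a), -0.13 ± 0.16 (Dynlt1b), 0.10 ± 0.15 (Dynlt1f) and, for the pseudogene Dynlt1-ps1, 0.04 ± 0.73, none called. The counting of reads that the copies share is not stated in the paper or the labels, so the values of single copies are uncertain. The call was lost with limma on FPKM (adjusted p = 0.112), with no filter on low counts (0.0718) and with WT alone (0.147) or Q20 alone (0.129) as controls.

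In kinesin-1 the light chain Klc2 (ENSMUSG00000024862, chr19:5107746-5118560, minus strand) was called, and the heavy chains were not. At 6 months WT libraries held 173 to 208 CPM of Klc2 (median 198), Q20 libraries 126 to 199 (median 178) and Q175 libraries 154 to 177 (median 165). Q175 and WT overlapped. Within the set that Q175 shares with WT the change was -0.23 ± 0.06 (adjusted p = 0.0117), and with limma on FPKM it was not called (adjusted p = 0.0878). At 10 months the controls held 145 to 202 CPM (median 172), Q140 144 to 175 (median 152) and Q175 124 to 203 (median 158). The change there was -0.13 ± 0.06 in Q175 (adjusted p = 0.163) and -0.13 ± 0.06 in Q140 (adjusted p = 0.547), neither called. With both ages combined, Klc2 fell with CAG length (Z = -3.33, adjusted p = 0.00889). As a share of the summed FPKM of Klc1, Klc2 and Klc4, Klc2 took 24.4% to 27.7% (median 25.9%) in the controls of 6 months and 21.7% to 23.8% (median 22.7%) in Q175, with no overlap. At 10 months it took 23.4% to 26.4% (median 25.4%) in the controls, 22.7% to 24.8% (median 23.9%) in Q140 and 20.8% to 23.7% (median 22.8%) in Q175. Klc1, the main neuronal light chain, had 0.06 ± 0.04 in Q175 at 10 months, Klc4 0.10 ± 0.07 and Klc3 0.26 ± 0.34. The heavy chains had -0.02 ± 0.06 (Kif5a), -0.08 ± 0.06 (Kif5b) and -0.04 ± 0.06 (Kif5c), with 837 to 1114 CPM of Kif5a in the controls and 933 to 1072 in Q175. The share of Kif5a among the 3 heavy chains was likewise close, 39.6% to 45.6% in the controls of 10 months and 40.1% to 45.1% in Q175.

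The pair of kinesin-9 motors, which are known from motile cilia and flagella, was lower in Q175 at 10 months. Kif6 (ENSMUSG00000023999, chr17:49615136-49909847) held 1.16 to 2.02 CPM in WT (median 1.48), 0.847 to 2.61 in Q20 (median 1.48), 1.07 to 1.51 in Q140 (median 1.24) and 0.678 to 1.38 in Q175 (median 1.04). Only 2 of the 8 Q175 libraries were below every control, and the change was -0.64 ± 0.15 (adjusted p = 0.00125). In the other lines at 10 months Kif6 had -0.38 (Q80), -0.30 (Q92), -0.24 (Q111) and -0.33 (Q140), and none of these was called. In Q175 it had -0.23 ± 0.16 at 2 months and -0.26 ± 0.12 at 6 months, also not called. Kif9 (ENSMUSG00000032489, chr9:110476958-110525179) held 2.40 to 4.39 CPM in the controls (median 3.45) and 1.66 to 3.30 in Q175 (median 2.28). Here 5 of 8 Q175 libraries were below all controls, with a change of -0.46 ± 0.16 (adjusted p = 0.0493), a call that was lost under 6 of the alternatives given in the closing section. Along CAG length both fell at 10 months, by slopes of -0.34 ± 0.08 for Kif6 (adjusted p = 0.00316) and -0.27 ± 0.09 for Kif9 (adjusted p = 0.038) per 100 CAG. Other members of motile cilia were not called in Q175 at 10 months, namely Kif27 (-0.43 ± 0.25), Dynlrb2 (-0.35 ± 0.46) and Kif19a (-0.16 ± 0.13).

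Markers of other cells moved beside these genes. The summed level of 11 measured markers of motile ciliated ependymal cells was 68.2 to 102 CPM (median 84.6) in the controls of 10 months and 61.3 to 78.5 (median 69.4) in Q175, with 0 of 11 higher and 1 (Dnah11) lower. Dnah11 had the highest median of these markers over the 166 libraries, 31.8 CPM. Along CAG length over 6 and 10 months, where Kif6 and Kif9 were also lower, 5 of the 11 (Foxj1, Rsph4a, Rsph1, Dnah11 and Tekt1) were lower and 0 higher. With the libraries of low length index left out 6 were lower and 1 (Hydin) was higher, beside 30.3% of all genes called. Choroid plexus markers, which depend on how much of that tissue is taken with the cerebellum, summed to 193 to 4110 CPM (median 1719) in the controls and 176 to 2494 (median 538) in Q175, with 0 of 10 called, and along CAG length 1 of 10 (Clic6) was lower. Of 10 oligodendrocyte markers 7 were lower in Q175 at 10 months and 9 along CAG length. Of the ciliated markers Spag17 was at 0 in 4 of the 166 libraries and of the choroid plexus markers Aqp1 in 1, and all others were above 0 in every library. Over the 166 libraries, as deviations of log2 CPM from the mean of each genotype and age, Kif9 followed the choroid plexus sum (Pearson r = 0.82, Spearman rho = 0.82, r = 0.81 without the 2 libraries farthest out in that sum). With the ciliated sum Kif9 had r = 0.38 (rho = 0.47, 0.47 without the 2 farthest), and r = 0.72 over the 140 libraries that remain without those of low length index. Kif6 was less close than Kif9 to the choroid plexus and ciliated sums. It had r = 0.35 for choroid plexus (rho = 0.34, 0.37 without the 2 farthest) and 0.28 for ciliated cells (rho = 0.31, 0.25). With the oligodendrocyte sum Kif6 was closer than Kif9, at r = 0.40 (rho = 0.38, 0.38). Kif9 had r = 0.30 with the oligodendrocyte sum (rho = 0.30, 0.25). Over the 140 libraries Kif6 had r = 0.36 with the choroid plexus, 0.35 with the ciliated and 0.55 with the oligodendrocyte sum. Kif9 had 0.82 with the choroid plexus and 0.43 with the oligodendrocyte sum over the same libraries. Members not called in Q175 at 10 months also followed the choroid plexus sum, among them Kif27 (r = 0.775), Dynlrb2 (0.67) and Klc3 (0.66). The lowest r with that sum was -0.29 (Kif17). With the oligodendrocyte sum r ran from -0.48 (Dynlt1c) to 0.61 (Dynll2), with 0.43 for Dync1i1, which was higher in Q175. Over the 166 libraries such values also carry the length index, with which Dynlt1c had r = 0.84. Over the 140 libraries r with the oligodendrocyte sum ran from -0.32 (Dynlt1c) to 0.62 (Kif1c), with 0.41 for Dync1i1. Permutation p-values, from 100000 shuffles within groups, were 1e-05 to 0.00058 for r over the 12 relations of Kif6 and Kif9 (1.7e-05 to 0.00058 after Benjamini-Hochberg adjustment), and 1e-05 is the smallest they can give. The paired levels come from the same libraries and share their depth, and these relations were chosen after seeing the data. How much of the change of Kif6 and Kif9 in Q175 goes with these cells was not tested, and in bulk tissue fewer cells of a type cannot be told apart from less RNA per cell. The promoter windows of the pair are shown side by side, since both were lower in Q175 (RefSeq, GRCm38.p6, plus strand, chr17:49614922-49615171 for Kif6 and, of the 2 windows listed for Kif9, chr9:110476744-110476993), with GTTGCC in capitals.
Kif6: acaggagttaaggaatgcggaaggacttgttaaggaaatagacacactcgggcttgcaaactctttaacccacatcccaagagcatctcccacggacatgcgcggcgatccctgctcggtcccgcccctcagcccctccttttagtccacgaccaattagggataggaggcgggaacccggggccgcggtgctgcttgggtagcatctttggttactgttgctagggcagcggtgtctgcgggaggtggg
Kif9: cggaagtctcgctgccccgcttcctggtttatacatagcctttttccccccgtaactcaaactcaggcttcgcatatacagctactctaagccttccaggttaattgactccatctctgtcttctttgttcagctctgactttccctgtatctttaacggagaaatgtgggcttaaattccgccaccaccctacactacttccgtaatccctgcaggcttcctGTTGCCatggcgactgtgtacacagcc
The motif stood 27 bases before the start in this window of Kif9, and neither the other window of Kif9 nor that of Kif6 held it.

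**Figure D4:**
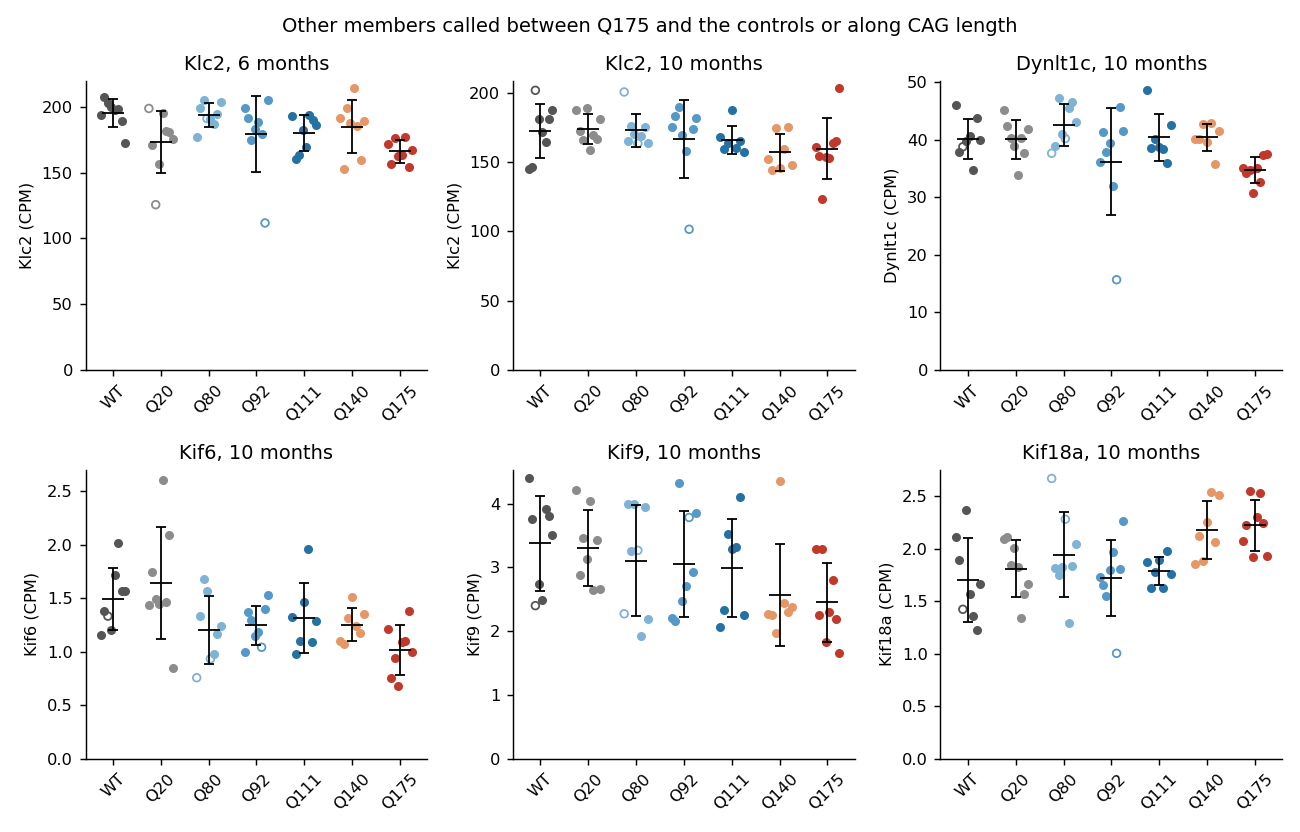
Level in each library, in CPM, of Klc2 at 6 and 10 months and of Dynlt1c, Kif6, Kif9 and Kif18a at 10 months, by genotype. Points are libraries, open points those of low length index, black bars the mean ± SD, and every axis starts at 0. Q175 overlaps the controls in every panel, and its medians are lower except for Kif18a (2.23 CPM against 1.74 in the controls).

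Kif18a and Kif14 act in cell division, Kif18a at the plus ends of spindle microtubules and Kif14 in cytokinesis. Kif18a (ENSMUSG00000027115, chr2:109280738-109341747) held 1.23 to 2.37 CPM in the controls of 10 months (median 1.74), 1.85 to 2.53 in Q140 (median 2.12) and 1.92 to 2.55 in Q175 (median 2.23). The Q175 and control ranges overlapped, and the change was 0.34 ± 0.10 (adjusted p = 0.0181), a call lost with WT alone (0.052) or Q20 alone (0.101) as controls. In Q140 it was 0.33 ± 0.11 (adjusted p = 0.181), which was not called. At 6 months Q175 had 0.04 ± 0.12 and at 2 months -0.05 ± 0.14. Kif14 (ENSMUSG00000041498, chr1:136466343-136531511) rested on 6 to 16 counts per library in the controls of 10 months and 5 to 11 in Q175, with medians of 0.336 and 0.195 CPM. Its change was -0.69 ± 0.21 (adjusted p = 0.0231), and the call was lost with DESeq2 (adjusted p = 0.0514), with the replicate block (0.0522), with limma on FPKM (0.16) and with WT alone as controls (0.267). The other members listed here as kinesins of dividing cells gave no call in Q175 at 10 months (Kif11 0.23 ± 0.15, Kif15 -0.03 ± 0.15, Kif20a -0.14 ± 0.19, Kif20b 0.0009 ± 0.17, Kif22 -0.14 ± 0.11, Kif23 0.15 ± 0.33). Of 6 measured markers of cycling cells 0 were called, and their sum was 4.40 to 6.02 CPM in the controls and 3.96 to 6.24 in Q175.

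Along CAG length as a number 4 members were called at 10 months (Dync1i1 and Kif18a higher, Kif6 and Kif9 lower), beside 8.01% of all genes, and 1 at 6 months (Dync1i1), beside 5.51%. With the Z values of 6 and 10 months combined 5 members passed, which is 8.2% of the members beside 17% of all genes (7.62% higher, 9.4% lower). Higher with CAG length were Dync1i1 (Z = 5.52, adjusted p = 1.8e-06) and Kif18a (Z = 2.87, adjusted p = 0.0293). Lower were Kif6 (Z = -3.94, adjusted p = 0.00134), Klc2 and Kif9 (Z = -3.30, adjusted p = 0.00973). Without the libraries of low length index 18 members were called, 7 higher and 11 lower, beside 30.3% of all genes, among them Dync1i2 (Z = 4.02), Kif13b (Z = -3.32), Kif21b (Z = -3.08) and Dctn2 (Z = 2.92).

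In 15 comparisons 0 of the 61 members were called by edgeR or by DESeq2. At 2 months these were Q80 (0% of all genes called), Q92 (0.0424%), Q111 (0%), Q140 (0%), Q175 (0.00605%) and the CAG slope (0.0303%). At 6 months they were Q80 (0%), Q92 (0%), Q111 (0.0182%) and Q140 (0.0363%), and at 10 months Q80 (0%), Q92 (0.817%), Q111 (0.115%) and Q140 (0.635%). The difference of the CAG slopes between 10 and 2 months also called 0 members, beside 0.52% of all genes. By edgeR the members with an unadjusted p under 0.05 in these comparisons numbered 0 to 15, the 15 being in Q111 at 6 months, where 20.3% of all genes had such a p. The comparisons of an age share their controls.

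Partners of the motors were read from lists fixed with earlier results of these data known. Of 44 cargo adaptors and regulators 43 were measured, and in Q175 at 10 months 1 was higher and 1 lower, beside 5.6% of all genes higher and 7.16% lower, with a median log2 change of 0.028 beside -0.005 over all genes. With the libraries of low length index left out 5 were higher and 3 lower, Htt among the latter, beside 26.2% of all genes called. Htt is itself the gene altered in the knock-in lines, and how reads of the altered allele were counted is not stated. Hook2, which links dynein to cargo and centrosomes, was higher by 0.33 ± 0.08 (adjusted p = 0.00391) and also at 6 months by 0.29 ± 0.08 (adjusted p = 0.0253). Grip1, a kinesin-1 adaptor for glutamate receptors, was lower (-0.23 ± 0.08, adjusted p = 0.0451). Along CAG length over both ages 4 adaptors were higher (Hook2, Bicd1, Hook1 and Kidins220, Z of 4.47, 3.21, 2.85 and 2.79) and 0 were lower, beside 7.62% and 9.4% of all genes. With the same libraries left out 10 were higher and 2 (Htt and Grip1) lower, beside 30.3% of all genes called. Hook1, Hook2 and Bicd1 are known to join dynein to dynactin or to its cargo. Of 44 tubulins and microtubule-associated proteins 43 were measured, 4 were higher and 6 lower in Q175 at 10 months, and their median was -0.013. Without the libraries of low length index 8 were higher and 11 lower, beside 26.2% of all genes called. The tubulin deacetylase Hdac6 was higher by 0.18 ± 0.03 (adjusted p = 3.7e-05), the glutamylase subunit Ttll1 by 0.24 ± 0.05 (adjusted p = 0.000127) and the neuronal tubulin Tubb2a by 0.24 ± 0.06. Lower were the tubulins Tuba4a (-0.22 ± 0.03, adjusted p = 1.7e-07), Tuba8 (-0.28 ± 0.06) and Tubg1 (-0.18 ± 0.05), the kinesin-1 cofactors Map7 (-0.10 ± 0.03) and Map7d2 (-0.16 ± 0.05), and the deglutamylase Agbl4 (-0.39 ± 0.13). Beside these, 7 of 10 oligodendrocyte markers were lower in Q175 at 10 months, summing to 4277 to 6216 CPM in the controls and 3278 to 4756 in Q175, and 6 of 10 Purkinje markers, summing to 8949 to 10830 and 7356 to 9278. Their part in these values was not tested.

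Age in the controls, 10 against 2 months, gave more calls among the members than any CAG comparison. Of the 61 members 26 were called, 13 higher and 13 lower, which is 42.6% beside 38.7% of all genes (16.2% higher, 22.6% lower). The serial numbers that open the library names form separate runs at 2 and at 10 months. What these numbers stand for is not stated, and age cannot be told apart from them. Higher at 10 months were the heavy chains of kinesin-1, Kif5a (0.28 ± 0.05, adjusted p = 5.2e-05), Kif5b (0.37 ± 0.07) and Kif5c (0.22 ± 0.06), and the heavy chain of dynein, Dync1h1 (0.32 ± 0.08). Kif5a held 616 to 950 CPM at 2 months (median 832) and 837 to 1114 at 10 months (median 978), so that the ages overlapped. The vesicle motors Kif1a (0.32 ± 0.08) and Kif1b (0.35 ± 0.10), the endosome motors Kif16b (0.28 ± 0.06) and Kif13a (0.18 ± 0.07), the kinesin-2 motors Kif3a (0.17 ± 0.05) and Kif3c (0.11 ± 0.05), Kif21a (0.31 ± 0.08), the microtubule depolymerase Kif2a (0.10 ± 0.03) and Kif6 (0.38 ± 0.13) were also higher. Lower were the light chains of kinesin-1, Klc1 (-0.13 ± 0.03, adjusted p = 0.00114), Klc2 (-0.14 ± 0.04) and Klc4 (-0.18 ± 0.07). Lower as well were small dynein and dynactin subunits, namely Dynll1 (-0.38 ± 0.10), Dynlrb1 (-0.36 ± 0.11), Dynlt1a (-0.40 ± 0.11), Dynlt1b (-0.27 ± 0.10), Dynlt1f (-0.51 ± 0.12), Dctn2 (-0.25 ± 0.07), Dctn3 (-0.49 ± 0.11) and Dctn6 (-0.18 ± 0.07). The last were Kif22, a chromosome-bound kinesin (-0.37 ± 0.09), and Kif1bp, which binds kinesins and is no motor (-0.07 ± 0.02).

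These changes with age followed transcript length. Of 26 members of 4000 bases or more 11 rose and 0 fell, and of 15 members under 2000 bases 0 rose and 8 fell. Across the 61 members the Pearson correlation of the change with log length was 0.75, beside 0.40 over all 16525 genes, which describes genes of the same libraries, not independent replicates. The length index of the libraries moved with age as well, with a median of -0.018 in the controls of 2 months (4 of 16 below -0.05) and of 0.039 in those of 10 months (1 of 16). Without the libraries of low index 24 members were called, 13 higher and 11 lower, beside 33.9% of all genes, and the correlation was 0.32 (0.20 over all genes). With the length index as a covariate 17 were called and the correlation was -0.12 (0.03 over all genes). The share of all genes called in that fit is not given. There 7 members of 4000 bases or more were called higher and 3 lower, and of those under 2000 bases 2 higher and 1 lower. Among the 17, Kif5a (0.18), Kif5b (0.18), Dync1h1 (0.10), Kif1a (0.08), Kif21a (0.07) and Kif6 (0.42) were called higher and Klc1 (-0.07) and Dctn3 (-0.14) lower. Not called there were Kif5c (0.05), Klc2 (-0.07), Dynll1 (-0.11) and Dynlrb1 (0.02). In Q175 at 10 months the correlation of the members' change with length was -0.02 (0.04 over all genes).

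**Figure D5:**
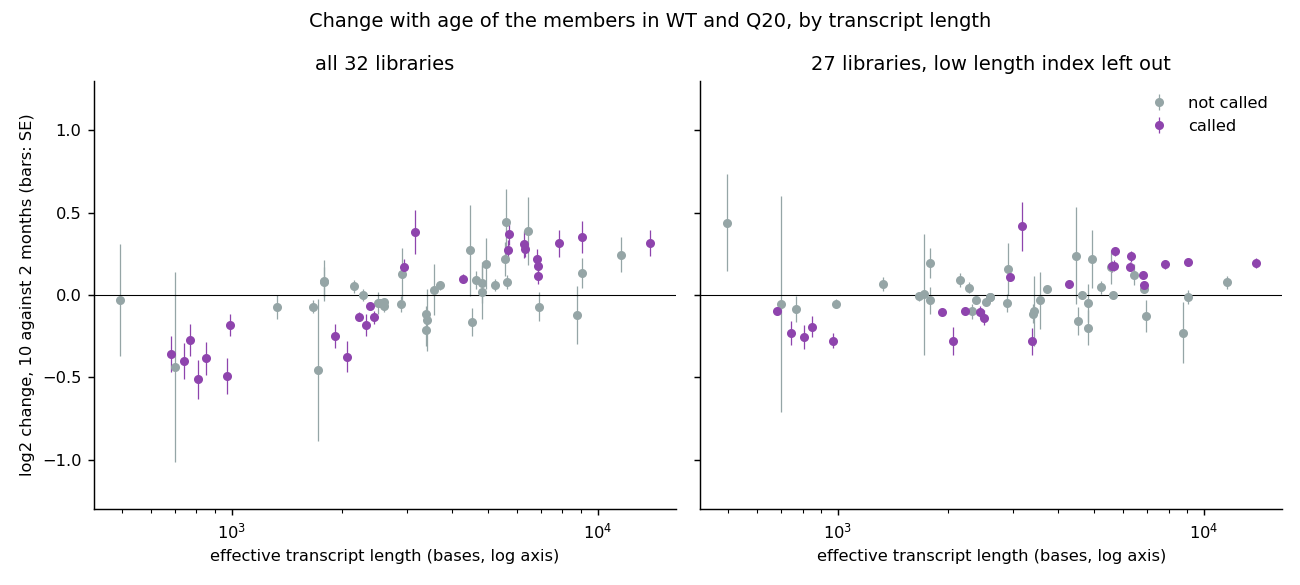
Log2 change from 2 to 10 months in WT and Q20 of each member (bars, 1 SE) against its effective transcript length in bases on a log axis, with all libraries (left) and without those of low length index (right). Purple points are called. On the left 11 of 26 members of 4000 bases or more are called higher and 8 of 15 under 2000 bases lower, and on the right 11 and 6.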

How the data were processed

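The series holds mRNA of 166 mouse cerebella. The authors deposited 2 tables, 1 of estimated counts per gene and 1 of FPKM values per gene, over 39179 genes. Base calling used CASAVA 1.8.2 per the submitters' processing notes, and neither the paper nor the labels state the aligner, counting tool or genome build of these tables. The deposited estimated counts were whole in 83.3% of cells and were rounded.

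Genes at 0.5 CPM or more in at least 8 libraries (16525) were fitted within each age with edgeR 4.0.16 (R 4.3.3), TMM factors, sex and, at 6 months, the library set (read from the name format in the labels) as terms, against WT and Q20. Tests were two-sided quasi-likelihood tests with Benjamini-Hochberg adjustment and a threshold of 0.05. CAG slopes are per 100 CAG, and those of 6 and 10 months were combined as Z values (Stouffer). DESeq2 1.42.0 on the counts and limma 3.58.1 on log2(FPKM + 0.1) were alternatives, with the others in the closing section. Effective lengths came from the ratio of the deposited tables. Totals ran from 23448884 to 43066066 counts per library. The fits were tested on simulated data.

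Positions are from GENCODE for GRCm38, which matched all 61 members, and promoters from RefSeq, which listed 45. Named were, for each main comparison, up to 15 called members a direction, and all members of kinesin-1, dynein-1, the dynein light chains and dynactin. The members and lists were chosen with earlier results of these data known.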

Additional observations from a re-analysis of the deposited data

Results flagged for a closer look

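For the called members of the Q175 and CAG comparisons, WT, Q20, Q140 and Q175 were looked at in each of 6 and 10 months. In 3 of these 56 sets of values there was a library apart from the rest of its group (Dixon's test at 95%), where chance gives about 1 in 20. Dync1i1 was at 173.8 CPM in male 4 of Q175 at 10 months, and the next library was at 162.5 CPM. Kif6 was at 1.802 CPM in female 2 of Q20 at 6 months, with the next at 1.326 CPM. Kif9 was at 4.356 CPM in male 1 of Q140 at 10 months, with the next at 2.443 CPM. None of the 3 libraries was of low length index.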

How the results depend on the processing

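Without the libraries of low length index 4 members were called in Q175 at 6 months (2 with all libraries), 12 in Q175 at 10 months (6), 4 along CAG at 6 months (1), 9 along CAG at 10 months (4) and 18 with both ages combined (5). Of all genes 13.3% were called there in Q175 at 6 months, 26.2% in Q175 at 10 months and 30.3% combined. With all libraries these shares were 4.52%, 12.8% and 17%. For the CAG slope at 6 months and at 10 months, each taken singly, the share without these libraries is not given. Those member counts cannot be set against the background either. Without the 15 libraries of low connectivity (closeness to the other libraries of an age by Euclidean distance, standardised, below -5) the numbers were 4 in Q175 at 6 months, 4 along CAG at 6 months, 14 combined and 2 for the difference of slopes between ages (0). The paper removed samples below such a cut from its microRNA data, whereas the main fits here kept these libraries. With the length index as a covariate they were 5 in Q175 at 6 months, 10 in Q175 at 10 months, 4 along CAG at 6 months, 18 combined and 17 with age (26). limma on FPKM called 1 member in Q175 at 6 months and 3 at 10 months. With WT alone as controls 2 were called in Q175 at 10 months, and 3 with Q20 alone. Apart from the setting without the libraries of low length index, the share of all genes called is not given for the alternatives. Their member counts cannot be set against the background.

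Dync1i1 and Kif6 kept their calls in Q175 at 10 months under every alternative run. Kif9 lost its call there without the libraries of opposite sex genes (adjusted p = 0.0717), with the replicate block (0.084), with no filter (0.0757), with limma (0.0614), with WT alone (0.16) and with Q20 alone (0.151), always in the same direction. Kif18a lost it with WT alone (adjusted p = 0.052) and Q20 alone (0.101). Of 39 single values, 4 of the change with age reversed with the length index as a covariate, Kif3c (-0.0153), Kif13a (-0.0265), Dynlrb1 (0.0167) and Dctn6 (0.0313), all uncalled there. The cause was not tested, beyond the index itself being a term of that fit.

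Within an age the correlation of same-numbered libraries' deviations averaged 0.123, 0.110 and 0.097 at 2, 6 and 10 months. Its lowest value was -0.791. Between libraries of different number it averaged 0.019, -0.009 and -0.011, so same-numbered libraries were slightly closer on average. Numbers were given within each sex, so same-numbered pairs were always of the same sex. Pairs of different number included pairs of opposite sex. The main fit did not use the replicate number, and why same-numbered libraries were closer was not tested. With the replicate block 4 members were called in Q175 at 10 months, 5 with both ages combined and 23 with age. Some members under 1 FPKM rest on few counts, such as Kif14 with 6 to 16 counts per library in the controls of 10 months. Kif6 and Kif18a were also under 1 FPKM there and were called in Q175 at 10 months. The smallest change that could be detected in such members is not given.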
